A study of Schizosaccharomyces pombe with 16 samples.

Results

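The comparison asked what the S2A substitution changed in fission yeast that already carried S7A in the carboxy-terminal domain (CTD) of RNA polymerase II. It set the 2 S2A-S7A libraries against the 2 S7A libraries, 4 of the 16 libraries in the study, over all 6420 of 7022 annotated features that had enough reads. Polyadenylated RNA had been sequenced strand by strand from cultures in YES, a rich medium, at 30 °C and an OD600 of 0.4 to 0.7. The strains rpb1CTD-S7A and rpb1CTD-S2A-S7A were both of mating type h- and both carried the markers ade6, ura4-D18 and leu1–32. The strains used beside them carried the same markers. They were rpb1CTD-WT 1-18, rpb1CTD-Y1F, rpb1CTD-T4A, rpb1CTD-Y1F-S7A and rpb1CTD-T4A-S7A, all h-, and rpb1CTD-S2A, which was h+. Each strain gave 2 biological replicates, so every mean below has n = 2, and the labels name no second clone of any strain.

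The CTD is the tail of Rpb1, the largest subunit of RNA polymerase II, and consists of repeats of 7 residues: tyrosine 1, serine 2, proline 3, threonine 4, serine 5, proline 6 and serine 7. In S2A and S7A the serine at that position is replaced by alanine, which cannot be phosphorylated, and in Y1F and T4A tyrosine is replaced by phenylalanine and threonine by alanine. Phosphate on serine 2 is added as the polymerase elongates and is recognised by factors that process the 3′ ends of transcripts. In fission yeast, serine 2 is also known for its part in the switch to sexual differentiation, while serine 7 is dispensable for growth. The stretch of rpb1 below shows 4 consecutive consensus repeats of the 24 in the reference coding sequence, with the codons of serine 2 and serine 7 in capitals. It is the unmutated RefSeq sequence (assembly ASM294v3, chromosome II:1596183-1596266, plus strand), and the mutant strains carried other codons there.
rpb1: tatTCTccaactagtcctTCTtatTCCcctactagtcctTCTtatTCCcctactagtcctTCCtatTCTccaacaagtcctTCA

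Reads of rpb1 itself cannot show the substitutions, because the deposited counts are per feature. The level of rpb1 was 255.2 and 289.5 CPM (read counts relative to the scaled total of each library) in S7A and 347 and 288.1 in S2A-S7A. The groups overlapped, and the log2 difference of 0.22 ± 0.18 (SE) did not pass the test (adjusted p = 0.48). The cytoskeletal gene act1 likewise overlapped between the groups, at 3035 and 2781 against 3250 and 2131 CPM. The 4 libraries held 26787128 and 20923133 reads in S7A and 26926165 and 18677921 in S2A-S7A.

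S2A changed 906 features in the S7A background, 14.1% of those tested. Of these, 489 (7.62%) rose and 417 (6.5%) fell, where rose and fell mean an adjusted p under 0.05 in edgeR's quasi-likelihood test with Benjamini-Hochberg adjustment over all 6420 features. The rises were the larger: the median log2 fold change was 1.43 among the features that rose and -0.75 among those that fell, and 334 rose against 105 that fell by at least 2-fold. Leaving out 1 library lowered the count of changed features. It was 468 without S7A replicate 1, 358 without S7A replicate 2, 707 without S2A-S7A replicate 1 and 466 without S2A-S7A replicate 2. In all 4 of these fits 174 features rose and 110 fell. With the replicate number as a block, 2145 features (33.4%) changed, 905 of the 906 among them. There 1044 rose and 1101 fell, the counts to set beside each block count of a gene list below. Median fold change over all features was within 0.02 log2 of 0 in each of these fits.

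**Figure D1:**
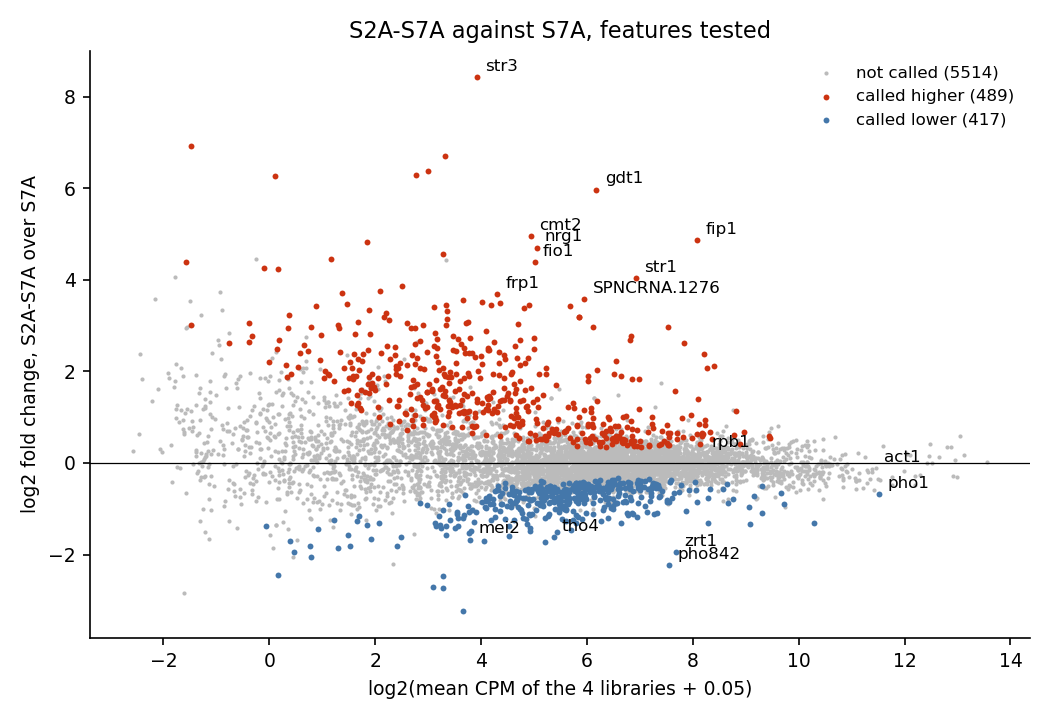
Log2 fold change of S2A-S7A over S7A against the level of each of 6420 features (log2 of the mean CPM of the 4 libraries plus 0.05). Red points rose (489), blue points fell (417) and grey points did not pass the test; the iron genes fip1, fio1, frp1, str1 and str3 lie at the top, and rpb1 and act1 lie near 0.

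Among the genes with the largest rises were several that bring iron into the cell. Fission yeast takes up iron by reduction and oxidation at the surface (Frp1, Fio1 and Fip1), through siderophores (Str1, Str2, Str3 and the synthesis enzymes Sib1, Sib2 and Sib3) and from heme (Shu1). When iron is plentiful the GATA factor Fep1 represses these genes. When it is scarce, Php4 turns off genes for proteins that use iron, and the glutaredoxin Grx4 acts on both regulators. Fep1 is known to bind variants of ATCNGATAA, where N is any base. Shown here are the upstream sequences of the iron genes that rose and had a match, from RefSeq ASM294v3. Each match, on either strand, is in capitals. The first is the region shared by the divergent genes fip1 and fio1 (I:4234816-4235013, plus strand), the next lies upstream of frp1 (II:162470-162498, minus strand), the one after it spans the start of str1 (II:2704640-2704668, plus strand), and the last lies upstream of shu1 (I:86375-86433, minus strand).
fip1 and fio1: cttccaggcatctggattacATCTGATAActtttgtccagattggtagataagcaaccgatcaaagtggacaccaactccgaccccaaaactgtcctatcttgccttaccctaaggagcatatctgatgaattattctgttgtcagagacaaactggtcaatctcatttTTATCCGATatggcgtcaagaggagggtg
frp1: aatttggttgATCTGATAAcgcatcaaga
str1: gctgccgaccATCAGATAAttcttatttt
shu1: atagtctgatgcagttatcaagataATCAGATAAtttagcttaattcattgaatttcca

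Of the 11 iron and heme uptake genes tested, 7 rose (63.6%, against 7.62% over all features) and none fell. Their median log2 fold change was 3.69, against -0.002 over all features. The iron permease gene fip1 stood at 16.3 and 19.8 CPM in S7A and at 488.2 and 561 CPM in S2A-S7A. Both double mutant libraries were far above both S7A libraries, a log2 change of 4.86 ± 0.61 (adjusted p = 0.00050). Its ferroxidase partner fio1 went from 1.84 and 4.12 CPM to 58.1 and 64.9 CPM (4.39 ± 0.72, adjusted p = 0.0023). The ferric reductase gene frp1 went from 2.86 and 2.79 CPM to 37.4 and 35.9 CPM (3.69 ± 0.56, adjusted p = 0.0014). These 3 genes form the reductive pathway, and all 3 kept the call when any 1 library was left out. Without S7A replicate 2 the change of fio1 was 5.06.

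The siderophore transporter gene str1 rose from 12.5 and 15.5 CPM to 226.8 and 231.8 CPM (4.04 ± 0.76, adjusted p = 0.0047), and without S7A replicate 1 its adjusted p was 0.051. For str3, S7A had 4 and 0 reads and S2A-S7A had 472 and 852, and for the heme uptake gene shu1 the reads were 5 and 3 against 308 and 305. Both genes therefore passed from near absence to clear signal, and their fitted log2 changes of 8.42 ± 1.36 and 6.29 ± 0.95 rest on those few S7A reads. For str3 it was 12.47 without S7A replicate 1, 7.63 without S7A replicate 2 and 7.68 without S2A-S7A replicate 2. The ferrichrome synthetase gene sib1 rose less, from 49.8 and 32.1 CPM to 110.2 and 78 CPM (1.20 ± 0.33, adjusted p = 0.030). That call was lost without S2A-S7A replicate 1 (0.15) or S7A replicate 2 (0.23). The other 4 members did not pass the test: str2 (-0.11), sib2 (0.11), sib3 (-0.33, adjusted p = 0.57) and the vacuolar transporter abc3 (0.45, adjusted p = 0.17). The replicate block called abc3 higher (adjusted p = 0.016) and sib3 lower (0.032).

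Among 6 genes listed with the regulators of iron use, 2 rose (33.3%, against 7.62% over all features). The repressor subunit gene php4 went from 46.6 and 50.7 CPM to 84.2 and 90.7 CPM (0.85 ± 0.17, adjusted p = 0.0063), with 0.053 without S7A replicate 1 and 0.051 without S2A-S7A replicate 2. The glutaredoxin gene grx4 went from 206.1 and 193.6 CPM to 365.1 and 352.4 CPM (0.84 ± 0.13, adjusted p = 0.0013). The repressor gene fep1 itself was level, at 75.5 and 70.1 against 74.3 and 76.6 CPM. The co-repressor genes tup11 and tup12 and the vacuolar iron transporter gene pcl1 also had fold changes within 0.10 log2 of 0.

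S7A was the strain with the lowest mean of fip1, fio1, frp1 and str1 among the 8. For fip1 the means were 18 ± 2.41 CPM (SD) in S7A, 47.1 ± 7.73 in WT, 50.7 ± 17.6 in T4A-S7A and 79 ± 73.9 in T4A. They were 310.9 ± 26.1 in S2A, 524.6 ± 51.5 in S2A-S7A, 535.8 ± 68.3 in Y1F-S7A and 768.2 ± 227 in Y1F. The T4A libraries, at 26.8 and 131.2 CPM, lay on both sides of the WT and T4A-S7A libraries, which overlapped each other, and the S7A libraries lay below all of these. Y1F-S7A and S2A-S7A overlapped for fip1, where the log2 difference was -0.03 (95% interval -1.15 to 1.09). Summed over the 11 genes, the level was 400 and 402 CPM in S7A, 493 and 413 in WT, 983 and 905 in S2A, and 1280 and 1300 in S2A-S7A.

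**Figure D2:**
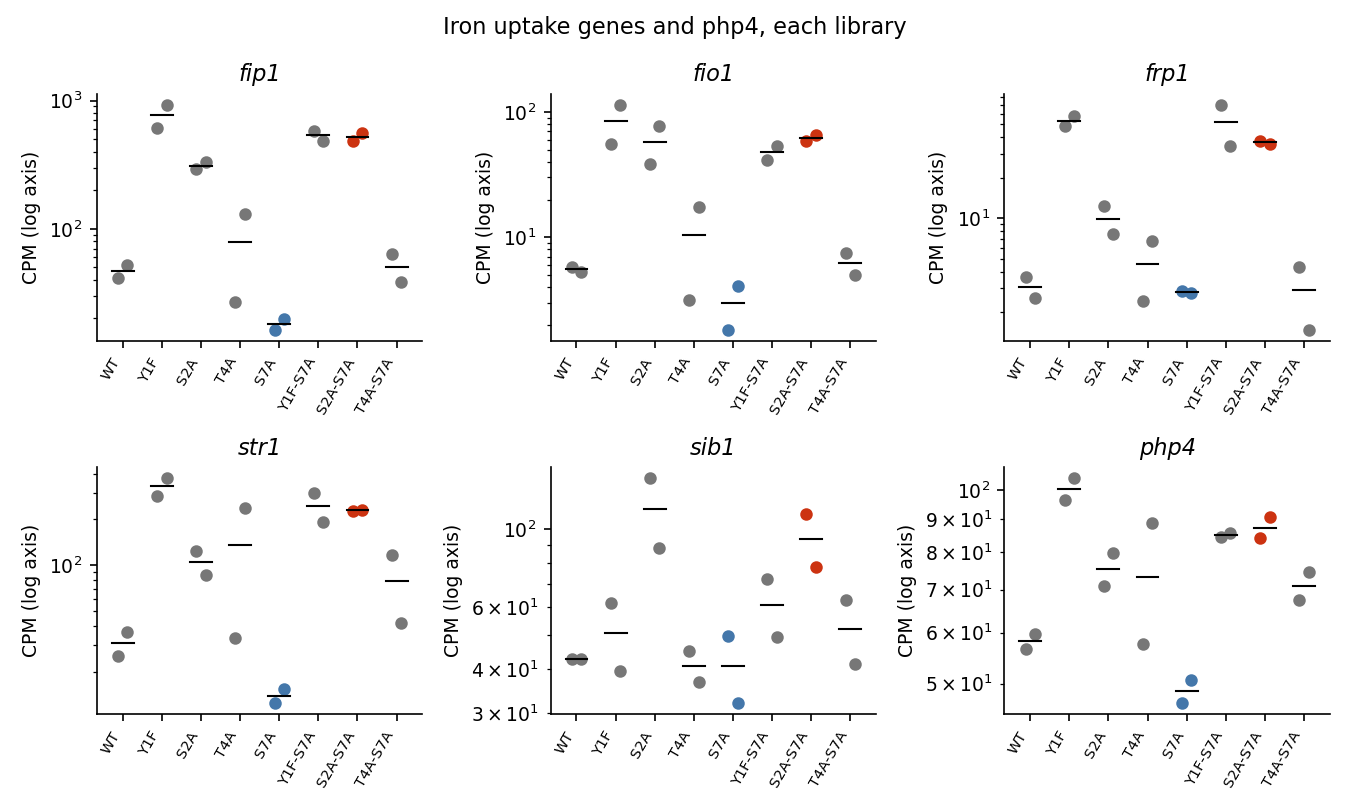
CPM on log axes of fip1, fio1, frp1, str1, sib1 and php4 in each of the 16 libraries, with a bar at the mean of each strain's 2 libraries; S7A is blue and S2A-S7A red. For fip1 the S7A libraries lie at 16.3 and 19.8 CPM and the S2A-S7A libraries at 488.2 and 561 CPM, beside those of Y1F-S7A.

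A match to ATCNGATAA, on either strand within 250 bases before to 50 bases after the RefSeq gene start, was found for 73 of 4993 coding features tested (1.46%). It was found for 16 of the 210 coding features that rose (7.62%), for 3 of the 399 that fell (0.752%) and for 7 of the 11 iron uptake genes. The matches of fip1 began 225 and 76 bases before its start (at -225 and -76), and those of fio1 at -236 and -87. The iron genes str2 (at -36) and abc3 (at -97) also had a match but did not pass the test. The 4 iron genes without a match were str3, sib1, sib2 and sib3, of which str3 and sib1 rose. The shorter GATAA, which every ATCNGATAA match contains, was in 59.3% of all these windows, 68.6% of those that rose and 62.2% of those that fell. The shares were 1.96, 1.43 and 1.25% for TTCTTTGTT (Ste11), 16.6, 19 and 15.3% for GTAAACA (Mei4 and other forkhead factors) and 5.95, 5.24 and 8.02% for TGACGT (Atf1), in the same order.

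Non-coding RNAs made up 273 of the 489 features that rose. Of 1334 tested, 273 rose (20.5%) and 18 fell (1.35%), with a median of 0.46. Of 4993 protein-coding features 210 rose (4.21%) and 399 fell (7.99%), with a median of -0.06. Over all features 7.62% rose and 6.5% fell. Under the replicate block 408 of the 1334 non-coding and 616 of the 4993 coding features rose, against 1044 of all 6420. Non-coding RNAs were then the smaller part of the rises by count, but still rose in the larger share of their class. The median level of the non-coding RNAs was 4.3 and 4.26 CPM in the S7A libraries and 5.8 and 7.07 CPM in the S2A-S7A libraries, against 83.8 and 83.8, and 80.9 and 80.2 CPM, for the coding features. Rises were 152 without S7A replicate 1, 140 without S7A replicate 2, 250 without S2A-S7A replicate 1 and 155 without S2A-S7A replicate 2. Among 45 features for small nuclear or nucleolar RNAs 2 rose, or 9 with the block, and 39 had a positive fold change. Their median was 0.91, and between 0.36 and 1.41 when 1 library was left out. Among 21 pseudogenes 3 rose (14.3%), with a median of 0.57, and between 0.27 and 0.68 when 1 library was left out.

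Most of the raised RNAs ran antisense to genes. Of 910 non-coding RNAs that overlap a coding feature on the other strand, 217 (23.8%) rose, and of the 424 without such an overlap 56 (13.2%) rose. The 4 with the largest folds by rule were SPNCRNA.1276, SPNCRNA.691, SPNCRNA.581 and SPNCRNA.888, each covered by a coding feature on the other strand over nearly its whole length. SPNCRNA.1276 rose from 10.4 and 8.72 CPM to 96.6 and 131.9 CPM (3.57 ± 0.21, adjusted p = 7.1e-06). SPNCRNA.888 rose from 3.56 and 3.04 CPM to 34.3 and 40.8 CPM (3.50 ± 0.27, adjusted p = 3.3e-05). Both groups were apart by far more than their own spread. SPNCRNA.691 and SPNCRNA.581 rose by 3.55 ± 0.45 and 3.52 ± 0.35, and SPNCRNA.691 by 2.85 without S2A-S7A replicate 2. The non-coding RNA with the deepest fall by rule, SPNCRNA.1431, has no such overlap and went from 12.6 and 20.3 CPM to 2.92 and 2.97 CPM (-2.48 ± 0.40, adjusted p = 0.0022).

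The genes opposite the raised RNAs moved in both directions. Of 216 pairs with a raised RNA, 25 coding partners fell (11.6%) and 12 rose (5.56%), with a median of -0.15. Of the other 690 pairs, 57 partners fell (8.26%) and 33 rose (4.78%), with a median of -0.05, and the difference between these shares was not tested. The pairs include SPNCRNA.1339 (3.20 ± 0.34) opposite fet4, a predicted iron and zinc transporter gene (-1.11 ± 0.23), and SPNCRNA.803 (3.03 ± 0.23) opposite hrp1, a chromatin remodeler gene (-0.57 ± 0.14). They also include SPNCRNA.1353 (1.23 ± 0.37) opposite tho4, for an mRNA export factor (-1.61 ± 0.15), and SPNCRNA.1413 (1.45 ± 0.24) opposite cft2, for a cleavage and polyadenylation factor (-1.03 ± 0.22). In the opposite direction, SPNCRNA.1304, of which cmt2 covered only a share of 0.26, rose together with cmt2 (4.23 ± 0.84 and 4.95 ± 0.40). SPNCRNA.605, of which hhy1 covered a share of 0.5, rose together with hhy1 (3.44 ± 0.49 and 1.73 ± 0.37). Some of these calls were lost when 1 library was left out. The adjusted p of SPNCRNA.1353 was 0.079 to 0.22 without any 1 of the 4, and that of SPNCRNA.1304 was 0.058 without S7A replicate 1 and 0.060 without S7A replicate 2. That of fet4 was 0.054 without S7A replicate 2 and 0.069 without S2A-S7A replicate 2, and that of hhy1 0.10 and 0.073 without the same libraries. That of hrp1 was 0.13, 0.074 and 0.12 without S7A replicate 1, S7A replicate 2 and S2A-S7A replicate 2. The library kit kept the strand, and 224 non-coding RNAs wholly inside a coding feature of the other strand had a median of 12.1% of that feature's level per base in S7A.

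Features near the ends of chromosomes I and II were higher as a group. Within 100 kb of these 4 ends, 46 of 111 features rose (41.4%) and 3 fell, with a median of 0.97, while elsewhere 443 of 6309 rose (7.02%) and 414 fell, with a median of -0.01, a difference given as counts without a test. All 4 ends shared in it, with 9 of 29 and 8 of 29 features raised on chromosome I and 14 of 25 and 15 of 28 on chromosome II. The share fell off with distance: 12 of 25 features rose and 0 fell within 50 kb, 34 of 86 rose and 3 fell from 50 to 100 kb, and 15 of 215 rose and 8 fell from 100 to 200 kb. At the ends of chromosome III, which hold the ribosomal DNA, 8 of 87 features rose and 8 fell. The count near the ends of I and II was 32 without S7A replicate 1, 26 without S7A replicate 2, 38 without S2A-S7A replicate 1 and 34 without S2A-S7A replicate 2. Many of these genes have near-identical copies, and how the authors counted reads that fit several copies is not given in the sources used here, so values of single genes there are uncertain.

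**Figure D3:**
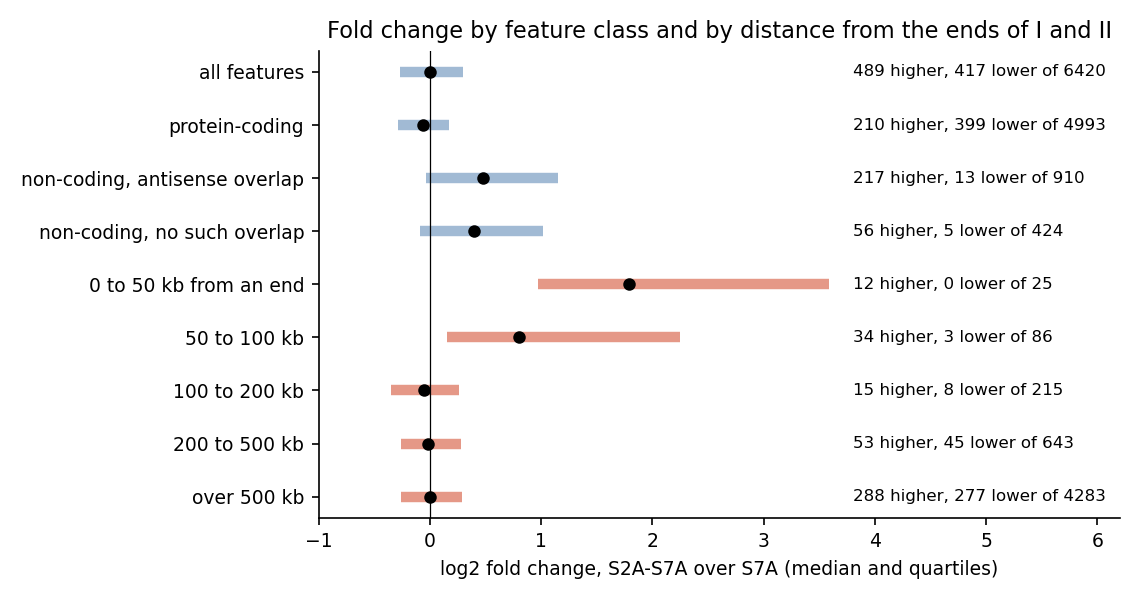
Median (point) and quartiles (bar) of the log2 fold change of S2A-S7A over S7A, by feature class (blue) and by distance from the ends of chromosomes I and II (red), with the counts that rose and fell. The median is 1.79 within 50 kb of an end, 0.80 from 50 to 100 kb and between -0.05 and 0 farther in.

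The largest rise by rule outside the iron genes was near an end of chromosome I. There gdt1, a gene related to a Golgi cation transporter, went from 3.56 and 0.784 CPM to 95.1 and 189.8 CPM (5.97 ± 0.81, adjusted p = 0.00071). It was 7.50 without S7A replicate 1, 5.32 without S7A replicate 2 and 5.38 without S2A-S7A replicate 2. On chromosome II, cmt2 went from 1.80 and 2.06 CPM to 47.9 and 71.2 CPM (4.95 ± 0.40, adjusted p = 4.6e-05), and nrg1 from 3.16 and 1.67 CPM to 69.9 and 57.4 CPM (4.70 ± 0.61, adjusted p = 0.00059). All 3 were separated between the strains in both libraries and kept the call in every fit that left out 1 library. The galactose gene gal10, beside the same end as nrg1, went from 4.66 and 5.24 CPM to 21.3 and 28.1 CPM (2.32 ± 0.29, adjusted p = 0.00051). The iron genes str3 and shu1 also lie within 100 kb of an end of chromosome I. Of the 3 features near the ends of chromosomes I and II that fell, 1 was pho1.

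For gdt1 and nrg1, S7A was again the low strain. The mean of gdt1 was 2.17 ± 1.96 CPM in S7A and 133.2 ± 5.47 in WT, 284.1 ± 11.8 in S2A and 142.4 ± 67 in S2A-S7A. The mean of nrg1 was 2.41 ± 1.05 CPM in S7A, 25.5 ± 10.3 in WT, 39.5 ± 3.58 in S2A and 63.7 ± 8.80 in S2A-S7A. For cmt2 the WT mean was also low, at 3.62 ± 0.657 CPM, and S2A and S2A-S7A stood at 21.9 ± 0.18 and 59.6 ± 16.5 CPM. Over the 111 features near the ends, the median level was 3.97 and 3.53 CPM in S7A, 5.16 and 4.13 in WT, 8.26 and 7.31 in S2A and 10.6 and 13.3 in S2A-S7A. The S2A-S7A medians were the highest of the 16 libraries.

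**Figure D4:**
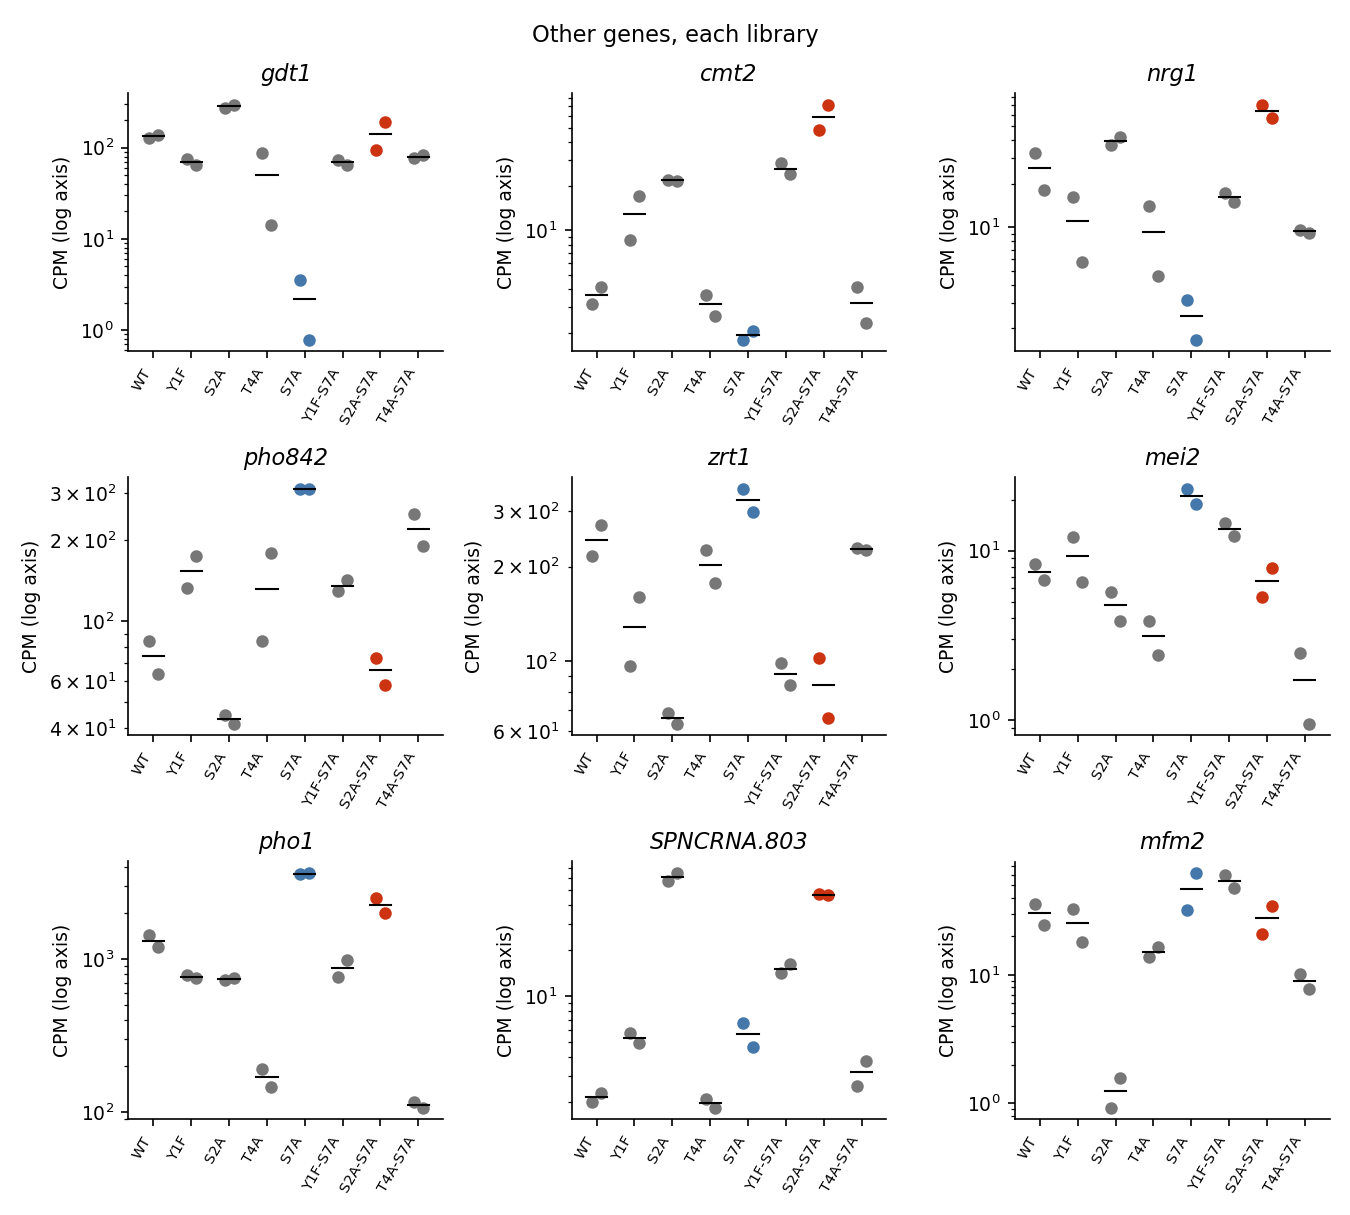
CPM on log axes of gdt1, cmt2, nrg1, pho842, zrt1, mei2, pho1, SPNCRNA.803 and mfm2 in each of the 16 libraries, with a bar at the mean of each strain's 2 libraries; S7A is blue and S2A-S7A red. The pho842 libraries stand at 309.2 and 309.8 CPM in S7A and 73.3 and 58.1 in S2A-S7A, and mfm2 is lowest in the h+ strain S2A.

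Of the 417 features that fell, 399 were protein-coding and 18 non-coding. Among coding genes the deepest fall by rule was that of pho842, a phosphate transporter gene, at 309.2 and 309.8 CPM in S7A and 73.3 and 58.1 CPM in S2A-S7A (-2.23 ± 0.30, adjusted p = 0.00068). The zinc transporter gene zrt1 went from 352.3 and 298.9 CPM to 102.5 and 65.9 CPM (-1.95 ± 0.26, adjusted p = 0.00068), while the other 5 zinc-responsive genes did not pass the test (with the replicate block 3 of them were higher). For both genes the 2 strains were well apart. The amylase homolog gene aah2 fell by 1.72 ± 0.23, the predicted hexitol dehydrogenase gene tms1 by 1.70 ± 0.36, the cap methyltransferase gene pcm1 by 1.59 ± 0.24 and the histone methyltransferase gene set7 by 1.57 ± 0.22 on the log2 scale. The features SPCC1620.13, dbl4 and wdr83 fell by 1.54 ± 0.21, 1.5 ± 0.21 and 1.49 ± 0.23. Among these 7 only tms1 lost its call when a library was left out (adjusted p = 0.078 without S2A-S7A replicate 2).

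S7A had the highest pho842 mean of the 8 strains, at 309.5 ± 0.418 CPM against 74.1 ± 14.3 in WT, 43.2 ± 2.15 in S2A and 65.7 ± 10.7 in S2A-S7A. So pho842 was high in S7A and stood near the WT level in S2A-S7A. The acid phosphatase gene pho1 went from 3576 and 3642 CPM to 2518 and 2004 CPM (-0.67 ± 0.19, adjusted p = 0.036). Its call was lost without S7A replicate 1 (0.12), S7A replicate 2 (0.15) or S2A-S7A replicate 2 (0.19). The other 2 phosphate uptake genes did not pass the test, so 50% of the list fell, against 6.5% over all features. Among the phosphate regulators given below this share was 25%, or 1 gene. The transporter gene pho84 was at 1301 and 971.5 against 744.5 and 423.5 CPM (-0.96 ± 0.35, adjusted p = 0.097, or 8.5e-05 with the replicate block). The glycerophosphodiester transporter gene tgp1 was at 89.6 and 97 against 92.4 and 43 CPM (-0.46 ± 0.31, adjusted p = 0.37), and its groups overlapped. Without S2A-S7A replicate 1 tgp1 was called lower (-1.12, adjusted p = 0.029). Of 4 regulators, 1 fell, the inositol pyrophosphate kinase gene asp1 (-0.73 ± 0.18, adjusted p = 0.018), with 0.11 and 0.061 without S7A replicate 1 or 2 and 0.13 without S2A-S7A replicate 2.

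For pho1 the mean was 2261 ± 363 CPM in S2A-S7A, 1316 ± 164 in WT, 740.9 ± 12.1 in S2A and 3609 ± 46.4 in S7A. It was 111.6 ± 7.29 CPM in T4A-S7A and 879.1 ± 159 CPM in Y1F-S7A, so the 3 double mutants did not overlap.

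Among genes for the machinery that ends transcripts, rhn1 had the fall with the lowest adjusted p. Of 17 cleavage, polyadenylation and termination genes, 4 fell (23.5%, against 6.5% over all features) and none rose, with a median of -0.27, and 1 to 2 fell when 1 library was left out. The termination factor gene rhn1 went from 44.3 and 44 CPM to 18 and 15 CPM (-1.42 ± 0.15, adjusted p = 0.00018) and kept its call in each of the 4 fits. The calls of the cleavage factor genes cft2 (-1.03 ± 0.22, adjusted p = 0.0095) and ctf1 (-0.42 ± 0.11, 0.020) and of the poly(A) polymerase gene pla1 (-0.34 ± 0.10, 0.038) were less secure. For cft2 the adjusted p was 0.078 without S7A replicate 1 and 0.080 without S2A-S7A replicate 2. For ctf1 it was 0.053, 0.16 and 0.095 without S2A-S7A replicate 1, S7A replicate 2 and S2A-S7A replicate 2, and for pla1 it lay between 0.081 and 0.19 without any 1 of the 4 libraries. With the replicate block 8 of the 17 fell and 2 rose, against 1101 and 1044 of all 6420 features. The RNA export factor gene tho4, which fell from 61.4 and 63.3 CPM to 19.1 and 21.6 CPM (-1.61 ± 0.15, adjusted p = 0.00012), had the lowest adjusted p of all coding genes that fell.

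Genes for RNA elimination and silencing were also tested. Over all features 6.5% fell, and with the replicate block 1101 of 6420 fell and 1044 rose. Of the nuclear elimination and exosome genes 16.7% fell, and of the RNA interference and heterochromatin genes 10.5%, or 2 genes each. Of the polymerase II subunit genes and of the CTD kinase and phosphatase genes 8.33% fell, or 1 gene each. Of 12 nuclear elimination and exosome genes, the MTREC subunit gene rmn1 fell (-0.58 ± 0.09, adjusted p = 0.0020), as did pla1, and the poly(A) polymerase gene cid14 rose (0.56 ± 0.12, 0.0095; 0.12 without S7A replicate 2 and 0.063 without S2A-S7A replicate 2). The block gave 5 falls and 1 rise among these 12. Of 19 RNA interference and heterochromatin genes, 2 fell: the Argonaute-binding gene arb2 (-1.03 ± 0.18, adjusted p = 0.0027) and the adaptor gene stc1 (-0.93 ± 0.28, 0.043; 0.21 without S2A-S7A replicate 1 and 0.30 without S7A replicate 2). With the block 7 of the 19 fell and 2 rose. Of 12 polymerase II subunit genes rpb4 rose (0.51 ± 0.14) and rpb9 fell (-0.74 ± 0.19), and of 12 CTD kinase and phosphatase genes lsg1, a subunit of the serine 2 kinase complex, fell (-0.53 ± 0.14). Of the latter 12, 3 fell and 2 rose with the block. Adjusted p was between 0.026 and 0.031 for these 3. For rpb4 it was 0.083 to 0.17 without any 1 of the 4 libraries. For rpb9 it was 0.053, 0.27 and 0.16 without S2A-S7A replicate 1, S7A replicate 2 and S2A-S7A replicate 2, and for lsg1 0.18, 0.072 and 0.13 without S7A replicate 1, S7A replicate 2 and S2A-S7A replicate 1.

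Calls among genes of the switch to mating and meiosis were not secure when 1 library was left out. Of 14 early mating and nitrogen-starvation genes, 4 fell (28.6%, against 6.5% over all features) and none rose, with a median of -0.28, and 0 or 1 fell when 1 library was left out. The meiosis initiator gene mei2 went from 23.1 and 19 CPM to 5.30 and 7.91 CPM (-1.67 ± 0.42, adjusted p = 0.021). The pheromone G protein gene gpa1 fell by 1.02 ± 0.27, the MAP kinase cascade genes ste4 and byr1 by 1.25 ± 0.36 and 0.70 ± 0.17 on the log2 scale. For mei2, gpa1 and ste4 the adjusted p rose above 0.05 without any 1 of the 4 libraries, to at most 0.18, and for byr1 without S2A-S7A replicate 1 (0.12) or S7A replicate 2 (0.20). The master regulator gene ste11 was at 29.1 and 23 CPM in S7A and 14.5 and 18 CPM in S2A-S7A (-0.68 ± 0.27, adjusted p = 0.13, or 0.039 with the replicate block). Its 2 pairs of libraries did not overlap. With the block 6 of the 14 fell, against 1101 of all 6420 features.

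Later meiotic genes moved both ways. Of 13 sporulation genes 3 rose (23.1%) and 2 fell (15.4%), against 7.62% and 6.5% over all features. For the recombination genes given below these shares were 7.14% and 14.3%. The forespore membrane gene meu14 rose from 5.03 and 4.51 CPM to 15.1 and 17.1 CPM (1.75 ± 0.30, adjusted p = 0.0030). The other 4 were mde10 (0.51 ± 0.12) and isp3 (0.95 ± 0.27), which rose, and mfr1 (-2.06 ± 0.50) and spo6 (-1.43 ± 0.37), which fell. The adjusted p of mde10 was 0.094, 0.081 and 0.058 and that of isp3 0.13, 0.21 and 0.22 without S7A replicate 1, S7A replicate 2 and S2A-S7A replicate 2. That of mfr1 was 0.15, 0.11 and 0.054 without S7A replicate 2, S2A-S7A replicate 1 and S2A-S7A replicate 2, and that of spo6 0.18 and 0.14 without the former 2 of these. Of 14 recombination genes, rec10 rose (1.30 ± 0.23, adjusted p = 0.0036), and rec12 and rec14 fell (-1.36 ± 0.35 and -0.64 ± 0.18) but rec12 had an adjusted p of 0.067 to 0.14 without any 1 library, and rec14 of 0.11, 0.19 and 0.25 without S7A replicate 1, S7A replicate 2 and S2A-S7A replicate 2. Of 10 meiotic transcripts that the Mmi1 system eliminates, 0 passed edgeR's test, 1 had an unadjusted p under 0.05, and 0 passed with DESeq2 or the replicate block.

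The labels give both strains as h-, and the genes that report mating type were compared for that reason. Many such genes are induced only by starvation, so rich medium gives a weak check. The M factor gene mfm2, made by h- cells, was at 32.2 and 62 CPM in S7A and 21 and 34.5 CPM in S2A-S7A, overlapping (-0.76 ± 0.38, adjusted p = 0.23). In the h+ strain S2A its mean was 1.25 ± 0.466 CPM, and in WT 30.1 ± 7.98. The 8 M-cell genes tested summed to 221 and 255 CPM in S7A and 164 and 175 in S2A-S7A, and the sums of the h+ strain S2A lay within the range of the h- strains, so the sum did not separate the mating types. All 8 had a lower fitted level in S2A-S7A than in S7A, with a median of -0.35, and the part this plays in other results was not tested. Of these 8 the transporter gene mam1 fell (-0.90 ± 0.25, adjusted p = 0.033; 0.089 to 0.17 without any 1 library). Of the 4 P-cell genes tested 0 passed edgeR's test, 1 had an unadjusted p under 0.05 and 0 passed with DESeq2. Their defining member map2 was at 5.98 and 7.94 CPM in S7A and 10.3 and 11.1 in S2A-S7A (0.62, adjusted p = 0.17). The other, map3, was at 22.4 and 17.8 against 16.1 and 11.7 CPM (-0.53, adjusted p = 0.23). The replicate block called map2 higher (0.039) and map3 lower (0.0089).

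Stress genes were split, with rises and falls of 16.7% each, against 7.62% and 6.5% over all features. Of 18 core stress genes, the sulfiredoxin gene srx1 (2.16 ± 0.30), the lifespan regulator gene ecl1 (1.95 ± 0.28) and the small heat shock gene hsp16 (1.95 ± 0.53) rose. The catalase gene ctt1 (-1.11 ± 0.19), the glutathione transferase gene gst1 (-1.87 ± 0.38) and hsp9 (-1.31 ± 0.34) fell. For srx1 the libraries were at 4.63 and 7.25 CPM in S7A and 21.7 and 31.3 CPM in S2A-S7A, and for ctt1 at 215.1 and 206.6 against 103.8 and 91.9 CPM. Both genes, and ecl1, kept the call in each of the 4 fits. The adjusted p of hsp16 was 0.075 to 0.22 without any 1 library, that of gst1 was 0.064 without S2A-S7A replicate 2, and that of hsp9 was 0.14 without S2A-S7A replicate 1 and 0.19 without S7A replicate 2. The median of the list was 0.11, and the block gave 5 rises and 5 falls, against 1044 and 1101 of all 6420 features.

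The remaining nutrient and housekeeping groups follow, where over all features 7.62% rose and 6.5% fell. The share that rose was 12.5% of the thiamine and of the flocculin genes, 10% of the amino acid and ammonium transport genes, 8.33% of the chaperone genes and 3.33% of the proteasome list. The share that fell was 12.5% of the hexose transporter genes, 10% of the transport genes, 3.33% of the proteasome list and 0.735% of the ribosomal protein genes. Each of these shares stands for 1 gene. The thiamine-repressed gene nmt1 rose from 2.24 and 2.40 CPM to 10.1 and 12.7 CPM (2.29 ± 0.39, adjusted p = 0.0028), alone among 8 thiamine genes. Of 8 flocculin genes pfl3 rose (1.83 ± 0.42, adjusted p = 0.013; 0.11 without S7A replicate 1 and 0.068 without S2A-S7A replicate 2), and of 8 hexose transporter genes ght2 fell (-0.85 ± 0.22, 0.023; 0.13, 0.070 and 0.12 without S7A replicate 1, S7A replicate 2 and S2A-S7A replicate 2). Of 10 amino acid and ammonium transport genes cat1 rose (0.48 ± 0.12) and fnx1 fell (-0.75 ± 0.20), with calls lost in 3 of the 4 fits: cat1 had 0.10, 0.12 and 0.12 without S7A replicate 1, S7A replicate 2 and S2A-S7A replicate 1, and fnx1 0.16, 0.089 and 0.19 without S7A replicate 1, S7A replicate 2 and S2A-S7A replicate 2. Of 136 ribosomal protein genes 1 fell, rpl1603 (-0.86 ± 0.23, adjusted p = 0.025, and 0.16, 0.055 and 0.16 without the latter 3 libraries), with a median of -0.26, and the block gave 7 falls. Of 30 genes matched to the proteasome list by symbol, pre8 rose (0.66 ± 0.13, adjusted p = 0.0047; 0.054 without S7A replicate 2) and pus1 fell (-0.73 ± 0.10, 0.00068). The pus1 entry was matched by its symbol alone, and whether it is a proteasome gene was not checked. The replicate block called 9 of the 30 higher and 2 lower, against 1044 and 1101 of all 6420 features. DESeq2 called 7 of the 30 in all, and 25 had a positive fold change, against 3195 of all 6420 features. Of 12 heat shock chaperone genes hsp10 rose (0.59 ± 0.17, adjusted p = 0.041; 0.064 to 0.27 without any 1 library). Of 10 core histone, 12 glycolysis and 5 housekeeping genes, 0 passed edgeR's test. At an unadjusted p under 0.05 and with DESeq2 1 histone gene did, with the replicate block 2 did, and of the glycolysis and housekeeping genes 0 did in each.

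The same substitution was made in WT, and S2A and WT share no library with S2A-S7A and S7A. S2A there changed 763 features (11.9%), but S2A is h+ and WT is h-, so mating type and S2A cannot be told apart in it. Across the 6420 features the 2 log2 fold changes had a Pearson r of 0.65 and a Spearman rho of 0.64, a description over features that share libraries. Of the changes, 431 were called in both, which is 47.6% of those in the S7A background and 56.5% of those in WT, and 426 of them went the same way. For zrt1 the falls were -1.95 ± 0.26 with S7A and -1.88 without it, and for SPNCRNA.1276 the rises were 3.57 ± 0.21 and 3.19. For fip1 they were 4.86 ± 0.61 and 2.72, which was not a difference that passed the test (2.14 ± 0.74, adjusted p = 0.33).

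The S2A effect differed between the backgrounds for 31 features (0.483%), 20 with a more positive and 11 with a more negative value in S7A. The highest by rule were SPBC23G7.10c (5.40 ± 0.76), nrg1 (4.07 ± 0.77), mfm2 (3.85 ± 0.60) and SPNCRNA.1487 (3.57 ± 0.30). Of these, SPNCRNA.1487 kept the call in all 8 fits that left out 1 library, while nrg1 lost it in all 8 (adjusted p = 0.063 to 0.24). For mfm2 it was lost in 6 of the fits with 1 library left out (0.064 to 0.12) and on the compared strains only (0.054). For SPBC23G7.10c it was lost without WT replicate 1 or any 1 library of S2A or S7A (0.054 to 0.10). For SPBC23G7.10c, mfm2 and SPNCRNA.1487 the difference came with low values in S2A, the h+ strain: 0.572 ± 0.107, 1.25 ± 0.466 and 1.42 ± 0.417 CPM. Between S2A-S7A and S7A these 3 did not pass the test. SPBC23G7.10c was, with the replicate block, called higher in S2A-S7A (0.90, adjusted p = 0.010). The gene nrg1 was instead low in S7A, as given above.

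The lowest differences by rule were those of ppk31 (-2.25 ± 0.30), SPNCRNA.952 (-2.08 ± 0.31), SPNCRNA.803 (-1.78 ± 0.32) and SPCC417.12 (-1.77 ± 0.34). SPNCRNA.803 and SPCC417.12 lost the call without any 1 of the 8 libraries (adjusted p = 0.067 to 0.16 and 0.059 to 0.23). SPNCRNA.952 lost it without any 1 library of WT, S2A or S7A (0.063 to 0.10), and ppk31 without WT replicate 1 or any 1 library of S2A or S7A (0.054 to 0.087). Fitted on the compared strains only, SPNCRNA.803, SPNCRNA.952 and SPCC417.12 had 0.080, 0.054 and 0.15. The kinase gene ppk31 had a mean of 4.09 ± 0.167 CPM in WT and 20.4 ± 1.07, 24.3 ± 0.463 and 25.4 ± 5.50 CPM in S7A, S2A and S2A-S7A. The 3 mutants overlapped in ppk31 or lay next to each other, above WT. The antisense RNAs SPNCRNA.803 and SPNCRNA.952 had means of 2.17 ± 0.219 and 2.08 ± 0.0904 CPM in WT, 5.64 ± 1.47 and 10.4 ± 0.154 in S7A, 60.8 ± 4.96 and 27.6 ± 0.742 in S2A and 46.3 ± 0.616 and 32.7 ± 7.49 in S2A-S7A. Without single libraries of the 4 strains the count of 31 was between 1 and 26. It was 1 without WT replicate 1, S7A replicate 1 or S7A replicate 2, 2 without S2A replicate 1 or 2, 4 without S2A-S7A replicate 2, 13 without WT replicate 2 and 26 without S2A-S7A replicate 1.

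**Figure D5:**
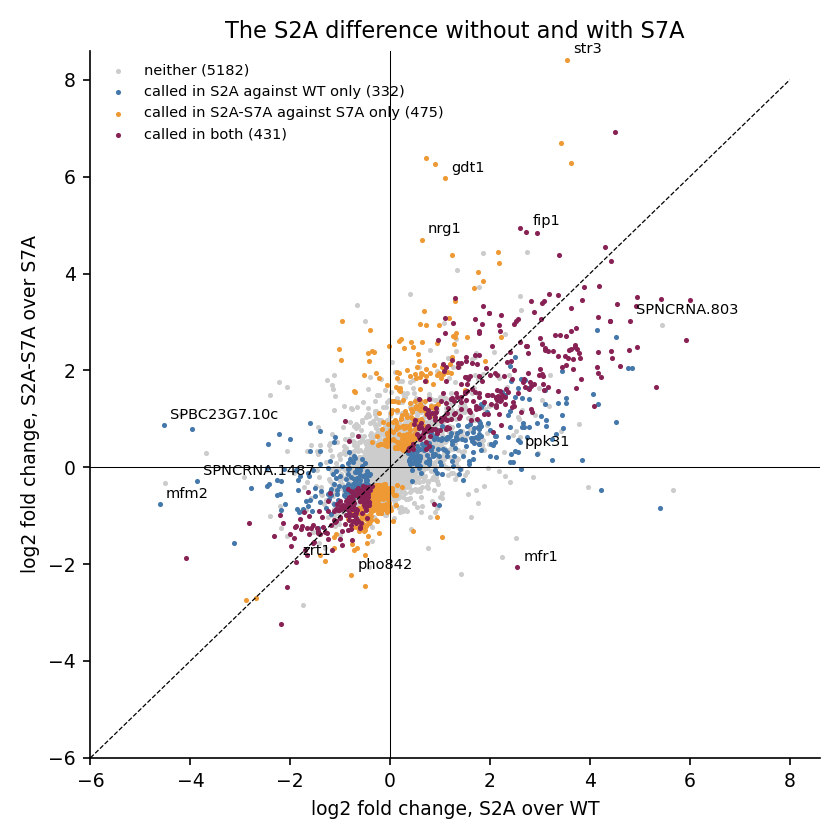
Log2 fold change of S2A-S7A over S7A (vertical axis) against that of S2A over WT (horizontal axis) for 6420 features, coloured by the comparison in which they were called; the dashed line marks equal values. Of the 431 features called in both, 426 changed in the same direction. The genes str3, gdt1 and nrg1 lie above the line. Far to the left, where the h+ strain is low, lie mfm2, SPNCRNA.1487 and SPBC23G7.10c.

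The double mutants with other substitutions in the S7A background give the remaining comparisons, and they reuse the S2A-S7A libraries. Against Y1F-S7A, 10 features (0.156%) passed the test in edgeR, 9 higher and 1 lower in S2A-S7A, with 535 at an unadjusted p under 0.05 and 148 by DESeq2. The replicate block gave 291. Over the 906 features the 95% interval of that difference reached a median of 0.44 log2 to either side, which limits what could be seen. Of the 10, 7 were antisense RNAs, among them SPNCRNA.799 (2.31, interval 1.53 to 3.10), SPNCRNA.803 (1.61, 1.13 to 2.09), SPNCRNA.1413 (1.43, 0.91 to 1.96) and SPNCRNA.1276 (1.30, 0.89 to 1.71). The others were pho1 (1.36, 0.94 to 1.78), efr3 (0.60, 0.38 to 0.83) and, lower in S2A-S7A, the mitochondrial gene mdm31 (-0.59, -0.80 to -0.38). With edgeR the count was 0 without Y1F-S7A replicate 1, Y1F-S7A replicate 2 or S2A-S7A replicate 2.

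Against T4A-S7A, 1110 features (17.3%) passed the test, 624 higher and 486 lower in S2A-S7A. The count was 639 without T4A-S7A replicate 1, 538 without T4A-S7A replicate 2 and 503 without S2A-S7A replicate 2. Near the ends of chromosomes I and II 52 of 111 features were higher and 2 lower, and of the 11 iron uptake genes 6 were higher. For pho1 the difference was 4.34 (adjusted p = 1.3e-06) and for fip1 3.37 (0.0019). The gene mei2 was higher in S2A-S7A than in T4A-S7A (1.90, adjusted p = 0.014), where its mean was 1.71 ± 1.08 CPM.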

How the data were processed

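The authors deposited 1 table with the read count of each annotated feature in each of 16 stranded, polyadenylated RNA libraries. The submitters' processing notes name Bowtie 0.12.7; the genome build, annotation and counting tool are not given in the sources used here. Log2 RPKM values by the authors and their fold changes of other strain pairs, in the same deposited table, were not used. Of 7022 features, 6866 matched RefSeq ASM294v3 and 156 did not, and 99% of the matched ones share a start or an end with their RefSeq gene. Another feature on the same strand covers the larger part of 283 features, whose reads may be shared.

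Counts were tested in edgeR 4.0.16 (R 4.3.3) with filterByExpr by strain, TMM factors and a robust quasi-likelihood fit with 1 coefficient per strain. It had 8 residual degrees of freedom and a biological coefficient of variation of 19.3%. Total counts ran from 18677921 to 31254978 per library. Chi-square values divided by their degrees of freedom, comparing replicates, were 136 in S2A-S7A and 91.1 in S7A, so no 2 replicates were 1 library deposited again. P-values rest on the spread between the 2 biological replicates of each strain, pooled over the 8 strains and drawn toward that of other features. The code was tested on simulated data. Libraries with the same number deviated together in all 28 strain pairs (correlation 0.24 to 0.67, and 0.28 for S2A-S7A with S7A). The labels do not say what a number shares, so the main fit took no account of it. Only the values given for the replicate block treat the numbers as pairing the samples, on the data alone. With the block, 3228 features differed between the replicate numbers. Alternatives were RLE factors, no filter, the replicate block, fits on the compared strains only, at least 2-fold changes, DESeq2 1.42.0, and leaving out each library. A strain left with 1 library is assumed to vary like the others.

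The comparisons, gene lists and naming rule were chosen with earlier results of these data known. The rule took the 12 highest and 12 lowest called fold changes whose average level over the 16 libraries was at least 3 in log2 CPM and whose strains did not overlap. It added up to 3 called members of each list, 11 fixed genes and the 4 highest and 4 lowest differences between backgrounds at the same level limit. Other list members are named where a count was small. The antisense pairs, the features called against Y1F-S7A and the families in the closing section were picked after their values were seen.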

Additional observations from a re-analysis of the deposited data

Results flagged for a closer look

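The S2A effect in S7A minus that in WT differed by edgeR's test for 10 features described here. In log2 it was -4.60 for mfr1, -2.25 for ppk31, -2.08 for SPNCRNA.952, -1.78 for SPNCRNA.803 and -1.77 for SPCC417.12. It was 2.21 for SPNCRNA.888, 3.57 for SPNCRNA.1487, 3.85 for mfm2, 4.07 for nrg1 and 5.40 for SPBC23G7.10c. The APC activator gene mfr1 fell by 2.06 with S7A and rose by 2.54 without it, at levels below 4 CPM in these libraries. S7A and mating type change together between the 2 effects, since S2A is the only h+ strain of the 4, and cannot be told apart in them.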

How the results depend on the processing

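Of the 75 features named by rule, 75 kept direction and side of the threshold with RLE factors or no filter, 74 with DESeq2, and 52 with only the strains compared or with a fold minimum of 2. With the replicate block 72 did, and SPBC23G7.10c (0.90), pho84 and ste11 also passed, so the block ended no call of a feature named by the rule, and changed no other call of theirs. With 1 library left out, 14 to 23 lost the call and tgp1 gained it in 1 fit. Under these settings the named features kept their direction, except act1, which did not pass the test and was between -0.45 and 0.15 with 1 library left out. The count of 906 was 2145 with the replicate block, 429 with only the strains compared, 439 with a fold minimum of 2 and 358 to 707 with 1 library left out. For S2A against WT, 763 became 1886 with the block, 460 with the fold minimum and 379 to 473 with a library left out. For the difference between backgrounds, 31 became 234 with the block, 12 with only the strains compared, 170 with DESeq2 and 1 to 26. For Y1F-S7A, 10 became 291, 2 and 148 under these, and 0 to 8. For T4A-S7A, 1110 became 2412 with the block, 432 with only the strains compared, 574 with the fold minimum and 503 to 983. The cause of these shifts was not tested. With 2 libraries a strain, features with few reads are the least certain.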

Other observations

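Families defined by symbol alone, and looked at after the values were seen, add some groups not described above. Of 9 hem genes, for heme synthesis, 3 fell (33.3%, against 6.5% over all features) and none rose. Among them hem12 went from 154.1 and 148.3 CPM to 67.8 and 69 CPM (-1.15, adjusted p = 0.00015). The gene hem14 changed by -0.73 and hem4 by -0.43. The hem14 call was lost without S2A-S7A replicate 1 (0.076) or S7A replicate 2 (0.13), and that of hem4 without any 1 library (0.052 to 0.075). The replicate block gave 5 falls, against 1101 of all 6420 features. Another family took the respiratory chain symbols qcr, cox or sdh with a number, and rip1, cyt1 and cyc1. Of these 32 genes, 5 fell (15.6%, against 6.5% over all features) and none rose. A negative fold change was found for 26 of them, against 3225 of all 6420 features. The complex III gene qcr1 went from 1106 and 1094 CPM to 643.2 and 546.1 CPM (-0.89, adjusted p = 0.0037). With the replicate block 12 fell and 1 rose, and 1 to 4 fell when 1 library was left out.

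Of 111 genes with a mug or meu symbol, given to genes induced in meiosis, 13 rose (11.7%) and 4 fell (3.6%), against 7.62% and 6.5% over all features, with a median of 0.14. With 1 library left out 6 to 15 rose, and the replicate block gave 23 rises and 10 falls. Among those that rose were meu27 (2.39), mug62 (2.27) and meu18 (1.78), with an adjusted p of 0.065 for mug62 without S7A replicate 1. Of 17 wtf genes, a repeated family of meiotic drivers whose copies may share reads, 4 rose and none fell, with a median of 0.77, and 1 to 3 rose when 1 library was left out.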
